A study of Homo sapiens with 6 samples.

Results

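The alpha-2-macroglobulin family is treated here as 6 genes of the 35793 in the deposited table: A2M, its pseudogene A2MP1, PZP, A2ML1, CD109 and the clearance receptor LRP1. They were chosen by gene symbol, with results of these same libraries already known, so their differences between genotypes are given as descriptions without a test. The measurement was RNA sequencing of cardiomyocytes grown from WTC11, a human induced pluripotent stem cell line. There were 3 wild-type libraries and 3 libraries from cells in which STK25, a serine/threonine kinase, had been knocked out in both copies by CRISPR/Cas9. All 6 were taken on day 15 of differentiation and no treatment was given, and the labels call the libraries of a genotype biological replicates. The knockout was 1 line in the WTC11 background, so the loss of STK25 cannot be told apart from other differences between the lines.

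Alpha-2-macroglobulin is a large secreted protein that inhibits proteases of every class by trapping them. A protease cuts its bait region, the molecule folds around the enzyme, and an internal thioester bond opens and links the pair covalently. The closed complex then shows a site that binds LRP1, a giant receptor of the lipoprotein receptor family, which takes it into the cell for breakdown. A2M also carries growth factors such as TGF-beta. PZP (pregnancy zone protein) and A2ML1 are inhibitors of the same build, A2MP1 is an unprocessed pseudogene, and CD109 is held on the cell surface by a lipid anchor and acts as a co-receptor that restrains TGF-beta signalling.

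The thioester site is what the family shares apart from LRP1, and it shows how close the members are in sequence. The lines give 60 bases around it from GENCODE 29 transcripts, read 5′ to 3′ on the gene's strand, with the bases that encode the thioester site in capitals. A2M (chr12:9079721-9079780, minus strand) has it in exon 24, PZP (chr12:9160396-9160455, minus strand) in exon 24, A2MP1 (chr12:9236347-9236406, minus strand) in exon 21 of its transcript, A2ML1 (chr12:8857199-8857258, plus strand) in exon 24 and CD109 (chr6:73792661-73792720, plus strand) in exon 23.
A2M: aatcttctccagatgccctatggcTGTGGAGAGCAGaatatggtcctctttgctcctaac
PZP: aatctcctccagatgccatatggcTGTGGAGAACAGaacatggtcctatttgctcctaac
A2MP1: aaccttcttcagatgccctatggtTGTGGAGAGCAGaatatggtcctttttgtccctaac
A2ML1: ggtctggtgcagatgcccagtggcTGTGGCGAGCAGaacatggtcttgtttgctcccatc
CD109: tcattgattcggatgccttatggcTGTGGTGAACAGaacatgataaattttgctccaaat

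Of these 60 bases, 55 were equal to A2M in PZP, 54 in A2MP1, 47 in A2ML1 and 41 in CD109. Counted from 1 at the first base, PZP differed from A2M by T6C, C18A, G33A, T39C and C48A, of which G33A lies within the capitals. The pseudogene kept all 12 capital bases of A2M. Over whole transcripts, 83.2% of 4433 aligned bases were equal between A2M and PZP and 76.3% of 3936 between A2M and A2MP1. Of the 6508 distinct 31-base words in A2M transcripts, 246 also stood in PZP, which is 3.78% of the words of A2M and 3.85% of the 6388 of PZP, and 0 stood in A2MP1, A2ML1, CD109 or LRP1. A further 532 words (8.17%) stood in the antisense RNA A2M-AS1, which was not analysed here. Strand use in the counting is not given in the sources used here, so reads of A2M and of its antisense RNA in those words cannot be told apart. A2MP1 shared 324 of its 4681 words (6.92%) with LINC00987 and 130 (2.78%) with AC010175.1, and CD109 shared 271 of 9812 (2.76%) with AL590428.1, none of which was analysed here.

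The promoters of a member that was higher and of one that was lower are shown because the 2 genes lay in opposite directions between the genotypes. RefSeq (GRCh38.p14) gave 250 bases before the start of 4 of the 6 members, PZP, A2ML1, CD109 and LRP1. The PZP window is chr12:9208396-9208645 on the minus strand and the CD109 window chr6:73695953-73696202 on the plus strand. Capitals mark the single motif match, a GATA site read on the opposite strand.
PZP: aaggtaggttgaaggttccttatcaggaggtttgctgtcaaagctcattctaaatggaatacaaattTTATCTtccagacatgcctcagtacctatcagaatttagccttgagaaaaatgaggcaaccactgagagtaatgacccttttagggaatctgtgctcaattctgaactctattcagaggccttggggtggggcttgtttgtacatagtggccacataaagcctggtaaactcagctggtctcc
CD109: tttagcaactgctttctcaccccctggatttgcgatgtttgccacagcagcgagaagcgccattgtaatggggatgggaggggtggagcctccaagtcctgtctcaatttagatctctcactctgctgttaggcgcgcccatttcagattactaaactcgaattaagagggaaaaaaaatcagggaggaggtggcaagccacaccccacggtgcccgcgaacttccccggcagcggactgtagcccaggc

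The PZP window held 43.2% G and C and 0 CpG pairs, that of CD109 54.4% and 11, that of LRP1 67.6% and 20, and the 2 windows of A2ML1 49.2% and 3 and 54.4% and 9, against medians of 58.0% and 11 over all 35116 promoter windows. Short motifs were searched on both strands. The TATA box, searched as TATAAA, stood in 10.7% of all windows of this length. The STAT site, searched as TTCNNNGAA, stood in 6.57% of them. GGGCGG, the GC box, was present in 42.6% and CCAAT in 32.0%. The GATA site, searched as AGATAA, was present in 9.17%. No matches overlapped in the windows printed. CD109 held none of them, PZP the GATA match, LRP1 a GC box and the first A2ML1 window (chr12:8822371-8822620, plus strand) a TATA box. A match is only a run of letters.

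The 6 libraries held 22443904 to 53224112 reads in genes, and 11622 genes had no read in any of them. STK25 itself was counted at 8119 ± 1168 normalized reads in wild type and 3720 ± 251 in the knockout (SD, n = 3 each), 2.18-fold lower, with a limma adjusted p of 0.00903 (0.0609 without wild-type replicate 1). Its RNA was therefore lower but present in all 3 libraries labelled as knockout. Over the 15536 genes with a mean of at least 10 normalized counts, limma called 927 higher and 1055 lower in the knockout (adjusted p under 0.05), which is 12.8% of them. With every library scaled to the same total, the median of all genes moved from 0.0052 to -0.27 on the log2 scale and the split to 549 higher and 1457 lower. Wild-type replicate 2 and knockout replicate 1 stood apart from the other 4 on the second principal component. In both, genes with a long exonic length (all exons of a gene merged) read lower against short ones (-0.55 and -0.40 on the log2 scale, against 0.0067 to 0.38 in the others). Without these 2 libraries, 4483 genes were called. All 11 cardiomyocyte markers were above the filter, with TNNT2, cardiac troponin T, at 236163 ± 31786 normalized counts in wild type and 299188 ± 67289 in the knockout.

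A2M was the most abundant of the 6 genes in every library per kilobase of transcript. The gene (ENSG00000175899.14) lies at chr12:9067664-9116229 on the minus strand (GRCh38). Its normalized counts were 3486, 1272 and 4010 in wild-type replicates 1 to 3 and 34585, 71498 and 58291 in knockout replicates 1 to 3. Even the lowest knockout library was above the highest wild-type library by a wide margin. On average this was 2923 ± 1454 in wild type against 54791 ± 18704 in the knockout (normalized counts, SD, n = 3 each), an 18.7-fold difference, or 4.33 with a standard error of 0.47 on the log2(normalized count + 1) scale. The lowest value of each genotype came from the library that stood apart, and without those 2 libraries the log2 difference was 4.11. These values rested on 1670 to 6287 reads in wild type and 27208 to 65590 in the knockout. Per kilobase of longest transcript A2M went from rank 3602 to rank 286 of 15174 tested genes, from 603 ± 300 to 11311 ± 3861 normalized counts per kilobase. In bulk RNA, fewer cells of a type and less RNA per cell cannot be told apart, and this holds for every gene here.

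**Figure D1:**
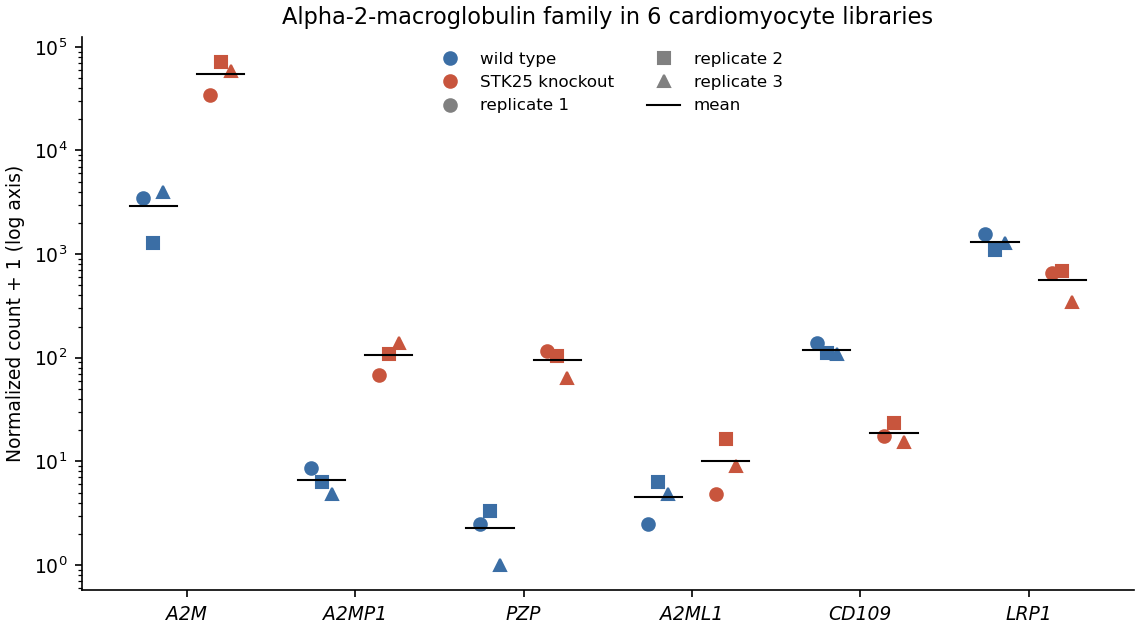
Normalized counts plus 1 on a log axis for the 6 genes, 1 point per library (blue wild type, red STK25 knockout, marker shape for the replicate number) with a bar at the mean of each genotype. A2M, A2MP1 and PZP sit higher in all 3 knockout libraries, CD109 and LRP1 lower, and the 2 genotypes of A2ML1 overlap.

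Across the family, 5 of the 6 genes had genotypes that did not overlap, 3 higher and 2 lower in the knockout. The same held for 33.4% of all genes tested (16.2% higher, 17.2% lower), and limma called 12.8% of them (5.97% higher, 6.79% lower). Since the family was chosen on this contrast, nothing is read from its count. Of the 6, 5 passed the filter on low values and A2ML1 did not. A2MP1 and PZP passed it only through their knockout values, with wild-type means of 5.57 and 1.27 normalized counts. Passing therefore does not mean that both genotypes expressed them.

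A2MP1, the pseudogene beside A2M (ENSG00000256069.7, chr12:9228533-9275817, minus strand), was counted at 7.55, 5.33 and 3.83 normalized counts in wild type and 67.4, 108 and 139 in the knockout. All knockout libraries were above all wild-type libraries, and wild type rested on 5 to 7 reads a library. The means of 5.57 ± 1.87 and 105 ± 35.8 differed 18.8-fold, close to the fold of A2M itself, and the fitted log2 difference was 3.99 with a standard error of 0.54. Per kilobase of transcript, A2MP1 was 0.254%, 0.492% and 0.112% of the A2M level in wild type and 0.228%, 0.177% and 0.279% in the knockout. These shares overlapped between the genotypes.

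PZP (ENSG00000126838.9, chr12:9148840-9208370, minus strand) lies between A2M and A2MP1. It had 1, 3 and 0 reads in the wild-type libraries, at or under the floor of 3 reads, and 91, 92 and 71 reads in the knockout. The knockout values were 116, 103 and 63.1 normalized counts (93.8 ± 27.4, SD, n = 3), at least 32.2-fold higher than the floor of the wild-type libraries. Its fitted log2 difference of 5.51 depended on the pseudocount, being 6.97 with 0.1 and 3.17 with 10, and is no bound. Per kilobase, PZP was 0.0455%, 0.189% and 0% of the A2M level in wild type and 0.351%, 0.151% and 0.114% in the knockout. How many PZP reads fell in the words it shares with A2M was not tested.

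A2ML1, an inhibitor best known from stratified epithelium (ENSG00000166535.19, chr12:8822472-8887001, plus strand), was at 1.51, 5.33 and 3.83 normalized counts in wild type and 3.81, 15.6 and 7.998 in the knockout. The groups overlapped, and with 1 to 14 reads a library the gene lay under the filter. A difference was not detectable at this depth.

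**Figure D2:**
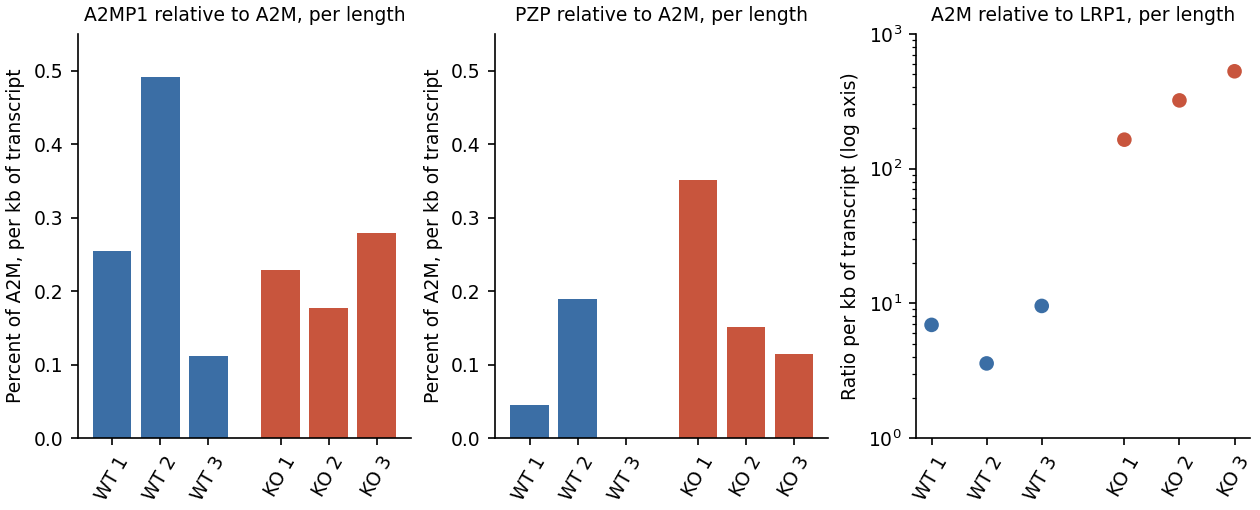
Per library, A2MP1 and PZP as a percent of A2M (bars from 0) and A2M over LRP1 (points, log axis), all from normalized counts per kilobase of transcript, with WT for wild type and KO for knockout. The shares of A2MP1 and PZP overlap between genotypes. In wild type those of PZP rest on 0 to 3 reads a library, at or under the floor, and those of A2MP1 on 5 to 7. The wild-type shares of PZP are therefore not measured levels. A2M over LRP1 lies between 3.58 and 9.56 in wild type and between 164 and 527 in the knockout.

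CD109 was lower in the knockout. The gene (ENSG00000156535.14, chr6:73695785-73828316, plus strand) was at 137, 110 and 107 normalized counts in wild type and at 16.5, 22.3 and 14.2 in the knockout. The wild-type libraries lay close together, and every knockout library was far under them. The means of 118 ± 16.8 and 17.7 ± 4.16 (SD, n = 3 each) gave a 6.68-fold lower level, or -2.69 with a standard error of 0.41 on the log2(normalized count + 1) scale. The knockout values rested on 13 to 20 reads a library and the wild-type values on 91 to 167.

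LRP1, the receptor that clears A2M complexes (ENSG00000123384.13, chr12:57128493-57213351, plus strand), was at 1550, 1092 and 1290 normalized counts in wild type and 650, 687 and 340 in the knockout. The highest knockout library stayed under the lowest wild-type one. The means of 1311 ± 229 and 559 ± 190 (SD, n = 3 each) gave a 2.35-fold lower level, or -1.28 with a standard error of 0.31 on the log2(normalized count + 1) scale. Per kilobase of transcript LRP1 went from 88.0 ± 15.4 to 37.5 ± 12.8 normalized counts per kilobase.

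A2M and LRP1 differed in opposite directions. Per kilobase, A2M over LRP1 was 6.92, 3.58 and 9.56 in wild type and 164, 320 and 527 in the knockout. CD109 per kilobase was 14.1%, 16.0% and 13.1% of LRP1 in wild type and 4.03%, 5.14% and 6.62% in the knockout, so the co-receptor was lower even relative to LRP1. Per kilobase, the order of the wild-type means was A2M, LRP1 (88.0), CD109 (12.6 ± 1.79), A2MP1 (1.35), A2ML1 (0.674) and PZP (0.274), the last 3 on a few reads each. In the knockout it was A2M, LRP1 (37.5), A2MP1 (25.4 ± 8.66), PZP (20.3 ± 5.94), CD109 (1.88 ± 0.442) and A2ML1 (1.73 ± 1.13). The pairs A2MP1 with PZP and CD109 with A2ML1 did not differ beyond their spread there.

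The genes around A2M were measured as a view of the locus. Within 300 kb of A2M the table listed 17 other genes, of which 7 were tested. PZP and A2MP1 were members, and of the other 5 tested none was called by limma, edgeR or DESeq2, with 0 at an unadjusted limma p under 0.05. RIMKLB differed by -0.23, M6PR (a mannose 6-phosphate receptor) by 0.25, PHC1 by 0.18, KLRG1 by -0.11 and AC009533.1 by -0.43 on the log2 scale, with adjusted p between 0.423 and 0.855.

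**Figure D3:**
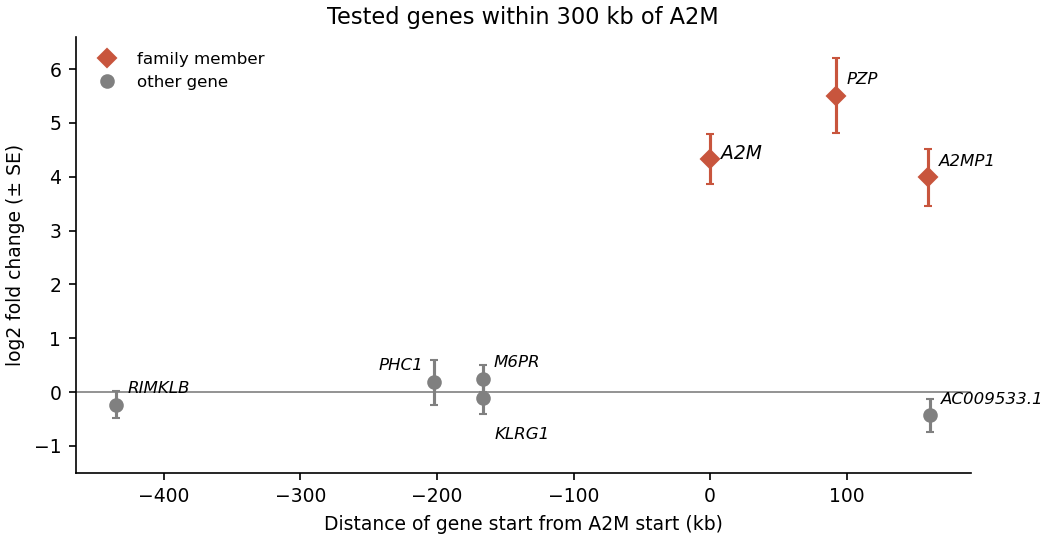
Log2 fold change, knockout minus wild type, with its standard error (n = 3 each), for the tested genes whose nearest end lies within 300 kb of A2M, plotted by the distance of their start from the A2M start. The 3 family members (red) lie between 3.99 and 5.51, PZP as a fitted value against a wild type at or under 3 reads, and the 5 other genes (grey) between -0.43 and 0.25.

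Around CD109, 4 neighbours were tested and none was called by the same 3 tools, again with 0 at an unadjusted p under 0.05 (EEF1A1 -0.44, MTO1 0.09, SLC17A5 0.44 and CGAS 0.49 on the log2 scale, limma adjusted p from 0.364 to 0.919). CGAS rested on 2 to 47 reads a library, with means of 17.0 normalized counts in wild type and 18.1 in the knockout. Around LRP1, 3 of 12 tested neighbours were called by limma, 1 higher and 2 lower, against 12.8% of all genes, and 2 were higher and 4 lower at an unadjusted p under 0.05. STAT6, a transcription factor of interleukin-4 signalling whose gene overlaps the start of LRP1 in GENCODE 29, was at 1168, 896 and 1424 normalized counts in wild type and 242, 235 and 322 in the knockout. It fell by 2.11 on the log2 scale (SE 0.26, limma adjusted p 0.00256). The counting setting for strand is not given in the sources used here, so reads of STAT6 and LRP1 in their common stretch cannot be told apart. Of the 20971 distinct 31-base words in LRP1 transcripts, 164 (0.782%) stood in any other gene, STAT6 included. SHMT2, a mitochondrial enzyme of serine and glycine metabolism, rose by 1.22 (SE 0.17, limma adjusted p 0.00421) from 2869 to 6712 normalized counts. TAC3, the precursor of neurokinin B, fell by 2.51 (SE 0.49, limma adjusted p 0.0158), a call that ended without knockout replicate 3 or wild-type replicate 3 (adjusted p up to 0.0616). The other 9 did not pass, with limma adjusted p from 0.0871 to 0.931. INHBE differed by 2.91, ARHGAP9 by 0.65, GLI1 by 0.28 and NEMP1 by 0.14 on the log2 scale. STAC3 differed by -2.43, R3HDM2 by -0.77, ZBTB39 by -0.73, NAB2 by -0.65 and RDH16 by -0.26. INHBE rested on 10, 0 and 23 reads in wild type, STAC3 on 1, 9 and 4 in the knockout and GLI1 on 2 to 31 a library. The mean of NEMP1 went from 383 in wild type to 354 normalized counts in the knockout, opposite in sign to its log2 difference.

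Outside the family, 10 lists of genes that work with its members held 145 genes, of which 112 were tested and 21 called by limma, 12 higher and 9 lower. The background was 12.8% called, and the median log2 difference of the 112 genes was 0.04 against 0.0052 over all genes. The count was 49 without the 2 libraries that stood apart, and 8 without knockout replicate 3, wild-type replicate 1 or wild-type replicate 3.

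**Figure D4:**
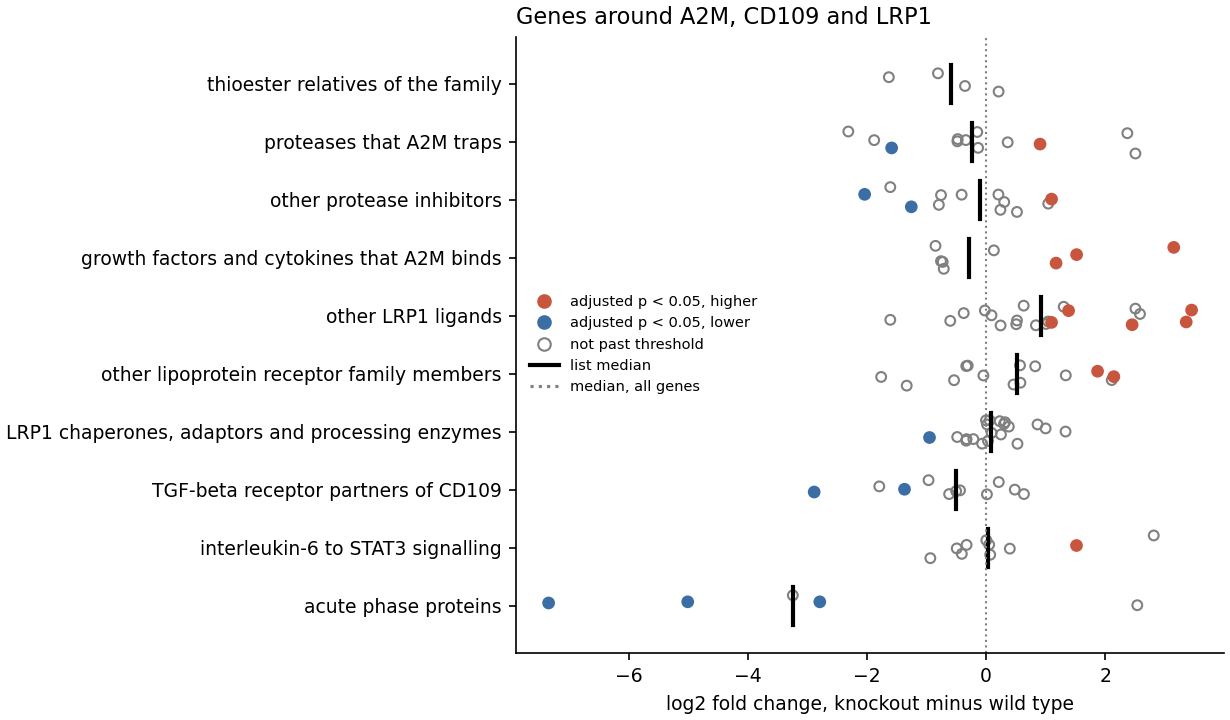
Log2 fold change, knockout minus wild type, of every tested gene of the 10 lists (filled points passed limma's adjusted p of 0.05, red higher and blue lower; open points did not), with a bar at each list's median and a dotted line at the median of all genes. The medians run from -3.24 for acute phase proteins to 0.92 for other LRP1 ligands.

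The thioester relatives of the family, listed as complement components, CPAMD8, OVOS1 and OVOS2, gave no call. Of 7 genes, 5 were in the deposited table and 4 were tested. Of those 4, 0 passed in limma, edgeR or DESeq2 or at an unadjusted limma p under 0.05. Their median was -0.58 on the log2 scale (-0.21 without knockout replicate 2). C5 was at 201 ± 15.3 normalized counts in wild type and 237 ± 52.1 in the knockout (log2 difference 0.21, limma adjusted p 0.702), and CPAMD8 at 171 ± 19.7 and 142 ± 60.2 (-0.35, limma adjusted p 0.624).

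Among proteases that A2M traps, 12 of 24 genes were tested, 1 rose and 1 fell, and the median was -0.24 (-0.025 without wild-type replicate 3, -0.53 with equal totals). CTSL, the lysosomal protease cathepsin L, rose from 4523 ± 457 to 8473 ± 871 normalized counts (log2 difference 0.91, SE 0.18, limma adjusted p 0.0174). F10, the coagulation protease factor X, fell by 1.59 on the log2 scale (SE 0.31, limma adjusted p 0.0163) from 541 ± 181 to 175 ± 29.3. MMP2, a gelatinase of the matrix, had a difference of -1.88 that did not pass (limma adjusted p 0.0581). The call of CTSL ended without knockout replicate 3, wild-type replicate 1 or wild-type replicate 3 (adjusted p up to 0.0859) and with equal totals, and that of F10 without replicate 3 of either genotype (up to 0.0671).

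Of the other protease inhibitors, 12 of 16 were tested, 1 rose and 2 fell, and the median was -0.10. The sign of that median turned without knockout replicate 3 (0.013) and with no filter on low values (0.21). TIMP1, a secreted inhibitor of matrix metalloproteases, was at 3359, 6103 and 2950 normalized counts in wild type and at 1336, 805 and 809 in the knockout. It fell by 2.04 on the log2 scale (SE 0.33, limma adjusted p 0.0079), and it was called in every fit that left out 1 library. TFPI, the inhibitor of the tissue factor pathway, rose by 1.10 (limma adjusted p 0.0165) and its relative TFPI2 fell by 1.26 (limma adjusted p 0.0446). Those calls were lost without single libraries, TFPI without knockout replicates 2 or 3 or wild-type replicates 1 or 3 (adjusted p up to 0.0858) and with equal totals, and TFPI2 when any 1 of the 6 was left out (up to 0.122). TFPI2 also lost its call with no filter on low values, equal upper quartiles, quantile normalization and without the 2 libraries that stood apart.

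Of the growth factors and cytokines that A2M binds, 8 of 13 were tested, 3 rose and none fell (3 were lower at an unadjusted limma p under 0.05), and the median of the list was -0.29, the opposite sign to its calls. BDNF, a neurotrophin, was at 52.9, 58.6 and 37.0 normalized counts in wild type and 577, 362 and 406 in the knockout, a rise of 3.15 on the log2 scale (SE 0.34, limma adjusted p 0.00142). TGFB2, a TGF-beta ligand, rose from 1938 ± 341 to 4386 ± 872 (1.17, limma adjusted p 0.0149). PDGFB, a platelet-derived growth factor chain, rose from 88.0 ± 8.18 to 267 ± 95.6 (1.52, limma adjusted p 0.0342). TGFB1 had a difference of -0.85 (limma adjusted p 0.119), and IL6 had no read in any library. The call of TGFB2 ended without knockout replicates 2 or 3 or wild-type replicate 3 (adjusted p up to 0.0609) and that of PDGFB when any library other than knockout replicate 1 was left out (up to 0.132), and both ended with equal totals. That of PDGFB also ended with no filter on low values.

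Other ligands that LRP1 takes up included 5 called genes of 20 tested, all higher, where 5.97% of all genes were called higher. At an unadjusted limma p under 0.05, 8 were higher and 1 lower. The list median was 0.92 on the log2 scale, from 0.64 to 0.95 under other scalings. The other settings called 2 to 14 genes of this list. GPC3, a cell-surface glypican, was at 929, 751 and 1003 normalized counts in wild type and 7240, 11374 and 11122 in the knockout. It rose by 3.45 on the log2 scale (SE 0.24, limma adjusted p 0.000243). CCN2, connective tissue growth factor, rose from 6728 ± 1082 to 37353 ± 9659 (2.45, SE 0.26, limma adjusted p 0.00126). APOE, the lipid carrier apolipoprotein E, was at 33733 ± 7352 and 89107 ± 25147 normalized counts (1.38, SE 0.29, limma adjusted p 0.0198). LIPC, hepatic lipase, had at most 3 reads in each wild-type library and was at least 7.84-fold higher in the knockout at 22.8 ± 10.4 (limma adjusted p 0.0287). TFPI, named above, was the fifth. The call of APOE ended without knockout replicate 3, wild-type replicate 1 or wild-type replicate 3 (adjusted p up to 0.104) and that of LIPC when any 1 library was left out (up to 0.116), while GPC3 and CCN2 were called in each of those fits.

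Among the relatives of LRP1, 2 receptors rose. Of 14 other lipoprotein receptor family members, all tested, limma called no gene lower (2 were at an unadjusted p under 0.05, and DESeq2 called 1), and the median was 0.51 on the log2 scale. That median was 0.069 when wild-type replicate 2 was left out, 0.28, 0.34 and 0.78 when it was knockout replicate 2, 3 or 1, and 0.23 with equal totals. VLDLR, a receptor for triglyceride-rich lipoproteins and reelin, was at 1835, 1449 and 2368 normalized counts in wild type and 5623, 8282 and 6635 in the knockout. It rose by 1.87 (SE 0.25, limma adjusted p 0.00314) and was called in every fit that left out 1 library. LRP1B, the closest relative of LRP1, rose from 37.4 ± 8.21 to 172 ± 57.7 (2.14, SE 0.40, limma adjusted p 0.0132), a call that ended without knockout replicates 2 or 3 or wild-type replicates 1 or 3 (adjusted p up to 0.0540). SORL1, a sorting receptor, had a difference of -1.76 and LRP10 one of 0.83, and neither passed (limma adjusted p 0.0604 and 0.0633).

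**Figure D5:**
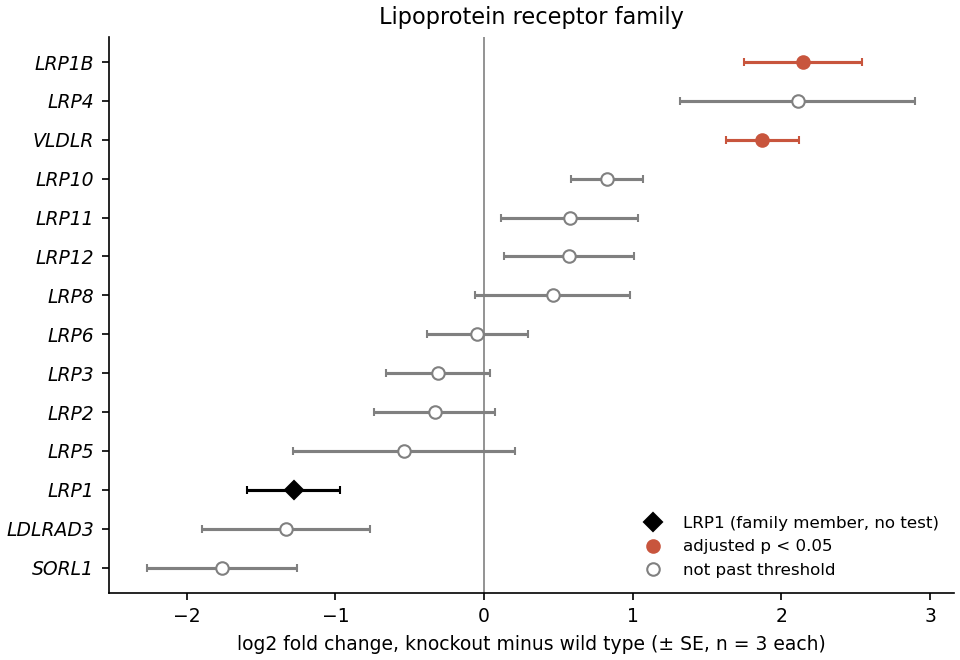
Log2 fold change, knockout minus wild type, with its standard error (n = 3 each), for LRP1 (black, shown without a test) and 13 other lipoprotein receptor family members. VLDLR (1.87) and LRP1B (2.14) passed limma's adjusted p of 0.05, and LRP1 lies at -1.28 between LRP5 and LDLRAD3.

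The chaperones, adaptors and processing enzymes of LRP1 were all tested, and 1 of 20 was called. LRPAP1, the chaperone that keeps ligands off LRP1 during folding, was at 5724 ± 413 normalized counts in wild type and 6810 ± 589 in the knockout (log2 difference 0.25, limma adjusted p 0.408). HSPA5, the chaperone BiP, differed by 0.06 (limma adjusted p 0.919). BACE1, a protease that can shed LRP1, fell by 0.96 on the log2 scale (SE 0.24, limma adjusted p 0.0387), a call that ended without a trend in eBayes and when any 1 library was left out (adjusted p up to 0.149). The list median of 0.08 changed sign with equal totals, to -0.21, and lay between -0.053 and 0.30 with 1 library left out.

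CD109 acts with the TGF-beta receptors, and 2 of 11 genes of that list fell and none rose (1 was higher at an unadjusted limma p under 0.05 and in DESeq2), with a median of -0.50. Leaving out a library moved that median to -0.12 without knockout replicate 1, -0.79 without knockout replicate 3 and -0.80 with wild-type replicate 2 removed, and equal totals to -0.78. TGFBR3, the co-receptor betaglycan, fell by 2.89 on the log2 scale (SE 0.68, limma adjusted p 0.0303) from 113 ± 31.2 to 17.9 ± 14.4 normalized counts. CAV1, the caveola protein that CD109 meets at the membrane, fell by 1.37 (SE 0.25, limma adjusted p 0.0128) from 845 ± 141 to 327 ± 59.1. The signalling receptors themselves gave no call, TGFBR1 at 0.01 (limma adjusted p 0.991) and TGFBR2 at -1.79 (limma adjusted p 0.287). The call of TGFBR3 ended when knockout replicate 3 or any wild-type library was left out (adjusted p up to 0.128) and that of CAV1 without wild-type replicate 1 (0.0738).

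A2M is an acute phase gene in the rat, driven through interleukin-6 and STAT3. In the interleukin-6 to STAT3 list, 1 of 10 genes rose and none fell (1 was lower at an unadjusted limma p under 0.05), and the median of 0.03 changed sign with equal totals, to -0.25, and lay between -0.21 and 0.25 with 1 library left out. STAT3 differed by -0.33 (limma adjusted p 0.600), the feedback inhibitor SOCS3 by 0.05 (limma adjusted p 0.957) and the shared receptor IL6ST by 0.07 (limma adjusted p 0.911). LIFR, the receptor of leukemia inhibitory factor, rose by 1.51 (SE 0.34, limma adjusted p 0.0265), a call that ended with equal totals, without a trend in eBayes and when any library other than knockout replicate 1 was left out (adjusted p up to 0.0922).

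Of 13 acute phase proteins 5 were tested, 3 fell and none rose (1 was higher at an unadjusted limma p under 0.05 and in DESeq2). The fitted median was -3.24 on the log2 scale, from -4.28 to -2.85 with 1 library left out and from -5.07 to -2.10 in the other settings. SAA1 and FGB lay below it also at their bounds, where it stayed at -3.24. SAA1, a serum amyloid, was at 233, 270 and 218 normalized counts in wild type and at 0, 2.23 and 0 in the knockout, at least 73.3-fold lower (limma adjusted p 0.000616). SAA2 fell from 183 ± 70.2 to 31.1 ± 28.1 (limma adjusted p 0.0263), and FGB, a fibrinogen chain, was at 38.2 ± 24.8 in wild type and had no read in the knockout, at least 11.7-fold lower (limma adjusted p 0.0121). CRP, LBP and SERPINA3 had no read in any library. The call of SAA2 ended when any library other than knockout replicate 1 was left out (adjusted p up to 0.0918) and that of FGB without wild-type replicate 1 or 3 (up to 0.0771).

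A2M is made by liver, by astrocytes and by vascular and connective tissue cells, so their markers are given beside its values. Their part in the differences of the family was not tested. Of the liver and endoderm markers, 6 of 11 were tested, AFP and FGB fell and none rose, FOXA2 had at most 3 reads in every library, and the summed level was 1850 to 3249 normalized counts in wild type and 1324 to 1407 in the knockout. Among 7 astrocyte and radial glia markers AQP4 and PAX6 rose and S100B fell, with sums of 2686 to 5520 and 7591 to 16207. The median of this list was 0.50 on the log2 scale, from 0.24 to 0.66 under other scalings. AQP4, a water channel, went from 25.7, 10.7 and 9.57 to 2180, 3015 and 3339 normalized counts (log2 difference 7.56, limma adjusted p 0.000131), only part of the knockout sums. GFAP was at 79.2 and 46.3 normalized counts on average.

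Of 9 mural cell markers MYH11, smooth muscle myosin, rose by 5.12 (limma adjusted p 0.000175) and CNN1 by 1.03 (limma adjusted p 0.0228), with sums of 28205 to 34580 normalized counts in wild type and 52954 to 65349 in the knockout. The mural list median was only 0.13 on the log2 scale, from -0.15 to 0.29 under other scalings. At an unadjusted limma p under 0.05, 4 mural markers were higher and 1 lower. Of 9 fibroblast markers COL3A1, DCN and TCF21 rose and COL1A2 fell, with sums of 12978 to 26534 and 8307 to 16737. The epicardial sum was 249 to 332 and 1111 to 1298, where ALDH1A2 and TCF21 rose and MSLN had at most 3 reads everywhere. The endothelial sum was 1279 to 1401 and 2093 to 2893, where ESAM rose and CDH5, TIE1 and ERG had at most 3 reads everywhere. No macrophage marker was called by limma, edgeR or DESeq2, with 0 at an unadjusted limma p under 0.05 (sums 341 to 1294 and 722 to 1307), and of the epithelial markers KRT19 fell (sums 12510 to 17071 and 6099 to 6248). Of the 11 cardiomyocyte markers NKX2-5 fell by 1.71 (limma adjusted p 0.00135), PLN fell by 0.76 (limma adjusted p 0.0459) and none rose in limma, with sums of 1312145 to 1631667 and 1850186 to 3364494. At an unadjusted limma p under 0.05, 5 of them were higher and 3 lower, DESeq2 called 5 higher and 3 lower, and the list median was 0.32 on the log2 scale (-0.15 with quantile normalization). Leaving out a library ended the call of ALDH1A2 without knockout replicate 3 (limma adjusted p 0.0660), of COL3A1 without knockout replicates 2 or 3 or wild-type replicate 1 (up to 0.0723) and of DCN without those or wild-type replicate 3 (up to 0.112). The call of PAX6 ended with any 1 library left out (up to 0.127), and those of CNN1, S100B and PLN with any other than knockout replicate 1 left out (up to 0.176). CNN1 also lost its call with equal totals and with quantile normalization. PLN also lost it with no filter on low values, with equal upper quartiles and without a trend in eBayes. PAX6 lost it with no filter on low values and ALDH1A2 with a pseudocount of 0.1.

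The 5 genes most like A2M over the 6 libraries were BOK, TINAGL1, LRRFIP1, CYP2J2 and GABRP, with Pearson correlations of the log2 values from 0.996 to 0.9997 among 13035 genes compared. The likeness is a description of 6 points that mostly share the split by genotype. BOK was at 1989, 1545 and 2068 normalized counts in wild type and 3733, 4561 and 4405 in the knockout, so it was lowest in the same 2 libraries as A2M. BOK starts near chr2:241551420, close to the edited gene STK25 (chr2:241492674-241509730), and LRRFIP1 also lies on chromosome 2. Whether that position bears on their values was not tested. CYP2J2, a cytochrome P450 of arachidonic acid metabolism in the heart, was at 1409, 816 and 1347 and at 5841, 7815 and 8499.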

How the data were processed

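RNA from 6 libraries, 3 wild-type and 3 STK25 knockout, was isolated on RNeasy columns with DNase digestion, and libraries were made with Clontech Ultra Low v4 and NexteraXT, per the labels' protocols. The submitters' processing notes name bcl2fastq 2.19, kallisto 0.44.0, DESeq2 1.28.1 and GRCh38 without giving their roles. The deposited values are normalized counts, a signal per gene symbol. In every library 100% of them were whole multiples of 1 step (tolerance 0.001 reads), so reads were recovered, 22443904 to 53224112 a library. The labels mention no molecular identifiers, so the floor of 3 reads speaks to counting error alone. The number of unused columns was 0.

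The main test was limma 3.58.1 (lmFit, eBayes with a trend) in R 4.3.3 on log2(value + 1) for the 15536 genes with a mean of at least 10, two-sided, with Benjamini-Hochberg adjustment over all of them and a threshold of 0.05. Fold changes on that scale understate the change of low genes. Standard errors are those of the fit. The tests used no covariate. The script recovered known changes in simulated data with independent libraries and none standing apart. That checks the script and says nothing about the calls made here, since these libraries varied more. edgeR 4.0.16 and DESeq2 1.42.0 on recovered reads, other pseudocounts, filters and scalings, eBayes without a trend, a replicate block and leaving out each library made up 17 other settings, and 2 more were chosen after seeing the data: leaving out 2 libraries together, and removing the trend over exonic length. Chi-square per degree of freedom between replicates was 18.9 to 363, more than counting error alone gives. That value cannot tell biological from technical differences between libraries. Each library counted as 1 replicate, as labelled.

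The members and lists were chosen with earlier results of these data known. In the receptor list and in the liver marker list, 1 gene each was counted with the others but is otherwise not reported here. The genes named are the 6 members, STK25, up to 4 called genes of each list with the largest change, others where a sentence gives a value that did not pass, the tested neighbours within 300 kb, and the 5 genes most like A2M by Pearson correlation with a mean of at least 50. Positions, exons, exonic lengths and transcript lengths are from GENCODE 29, promoters from RefSeq. Python 3.11.15 with matplotlib 3.10.9 made the figures.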

Additional observations from a re-analysis of the deposited data

How the results depend on the processing

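The direction of A2M, A2MP1, PZP, CD109 and LRP1 was the same in all alternatives that gave a value; PZP and A2ML1 rest on few reads in wild type, and PZP fell under the filter at a mean of 50. Leaving out 1 library gave log2 differences of 3.81 to 4.64 for A2M, 3.76 to 4.27 for A2MP1, 4.999 to 5.86 for PZP, -2.86 to -2.55 for CD109 and -1.46 to -0.96 for LRP1. A pseudocount of 10 gave 2.84 for A2MP1, 3.17 for PZP and -2.21 for CD109, a pseudocount of 0.1 gave 6.97 for PZP, DESeq2 gave 6.33 for PZP, and equal totals gave -2.96 for CD109. Of all genes, 1982 were called, against 3210 with DESeq2, 4483 without the 2 libraries that stood apart and 796 to 2181 without 1 library (the lowest being 796 and 916 with wild-type replicate 1 or 3 removed, and 962 and 1292 with knockout replicate 3 or 2 removed). Of the genes in the 10 lists, 21 were called, against 49 without those 2 libraries and 8 to 23 without 1 library (8 with wild-type replicate 1 or 3 or knockout replicate 3 removed, 13 with knockout replicate 2 removed). Of 40 called genes followed, 15 passed in every alternative, 16 in every fit without 1 library, and 0 reversed. The cause of these changes was not tested.

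Deviations of same-numbered libraries correlated at -0.23, -0.40 and 0.17, and those of libraries with unlike numbers at -0.35 to 0.45. The highest of these joined the 2 libraries that stood apart, wild-type replicate 2 and knockout replicate 1. The correlations therefore cannot decide whether libraries with the same number were made together. With the replicate block, 798 of all genes and 6 of the list genes were called.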
